A study of Mus musculus with 3 samples.

Results

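The genes of the RAB small GTPases described here are the nuclear protein-coding genes of the GENCODE M21 annotation whose symbol is Rab, a number and at most a letter and a digit. This name rule found 59 genes among the 55536 annotated gene rows of the 3 gene tables, 22015 of which are nuclear-encoded and protein-coding. The rule used no measured value. Measured was ribosomal RNA-depleted total RNA of the cytosolic fraction of macrophages from C57BL/6J mice, grown from bone marrow and exposed for 120 min to 100 ng/ml of lipid A, the part of bacterial lipopolysaccharide that TLR4 senses. There is 1 group of 3 libraries, replicates 1, 2 and 3, each made from 1 µg of RNA, and the sex and age of the mice were not recorded. No untreated cells, other times or nuclear fraction are analysed here, so the values are levels and not responses to lipid A. The labels number the replicates as biological, with a biosample each, but all 3 carry 1 donor identifier, and separate animals or cultures are not named. Every SD therefore describes how these libraries differed, which may be technical in part or in whole.

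RAB proteins are the largest family of Ras-like small GTPases. Each cycles between a GTP-bound form that sits on a membrane and a GDP-bound form that is kept soluble by a GDP dissociation inhibitor. The membrane that a RAB decorates gives a vesicle its identity, because the active form recruits the tethers, motors and sorting factors that move the vesicle on. In macrophages these switches order the path from the phagocytic cup through early and late phagosomes to the lysosome, and the delivery of cytokines and receptors to the surface.

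The libraries held 31152786, 114031592 and 59693298 expected counts in replicates 1, 2 and 3. Levels are given as TPM, which divides by transcript length and scales each library to the same sum, so that genes can be compared with each other. Of 9 macrophage markers, 8 lay above the detection threshold of 1 TPM in every library, from Mertk at 14.5 to Lyz2 at 4039 TPM on average, and Cx3cr1 stood at 0.0967 TPM. All 27 markers of T, B and NK cells, neutrophils, mast cells, erythroid cells, megakaryocytes, dendritic cells and stroma stayed under that threshold. Their summed level was 3.53, 2.04 and 3.13 TPM in replicates 1, 2 and 3, and Cd3d, Ly6g and Mcpt4 had no count in any library.

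The coding sequences show what the family shares and how its closest members can be told apart. The phosphate-binding loop of a small GTPase reads glycine, 4 free positions, glycine, lysine and then serine or threonine. These codons were found in the highest complete coding transcript of 56 of the 59 genes. The exceptions were Rab40b, Rab40c and Rab11b. For Rab11b the transcript used has 193 codons, against 216 in Rab11a, and the loop was not sought in its other transcripts. The loops of the Rab8, Rab1 and Rab5 paralogs are given because the results below compare the levels of these genes with each other. Capitals mark the codon of the first glycine and the final glycine, lysine and serine or threonine codons.
Rab8a: GGGgactcgggggtaGGGAAGACC
Rab8b: GGCgactccggcgttGGCAAGACC
Rab1a: GGCgattctggggttGGAAAGTCC
Rab1b: GGTgactccggcgtgGGCAAGTCG
Rab5a: GGAgagtctgctgttGGCAAATCA
Rab5b: GGAgagtctgcagtgGGGAAGTCT
Rab5c: GGCgagtctgccgtgGGCAAGTCC
These stretches encode the same kind of loop with different bases between the capitals. Lettered paralogs were aligned in subfamilies with a member at 1 TPM or more on average, which left out those of Rab27, Rab39 and Rab40. Across the 18 pairs aligned, nucleotide identity of the coding sequences ran from 61.2% for Rab7 and Rab7b to 78.4% for Rab6a and Rab6b. The longest identical run was 38 bases, in Rab1a and Rab1b, and none of these pairs shared a stretch of 50 coding bases. Each gene entered with the 1 transcript used above, which for Rab11b was the form of 193 codons. The 68.1% of the Rab11 pair, taken over the longer sequence, may therefore be too low. Other Rab11b transcripts were not aligned, so these bounds may not hold for them. At the other end of the protein lie the cysteines that receive the geranylgeranyl anchors. The last 2 codons were both cysteine in 15 genes, cysteine, any codon and cysteine in 20, and 20 others had cysteine as the fourth codon from the end. A further 3 had another cysteine among the last 4 codons, and in Rab26 the transcript used had none.

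Of the 59 RAB genes, 34 were detected, that is, had at least 1 TPM in every library, against 37.6% of all nuclear protein-coding genes. The other 25 fell below 1 TPM in at least 1 library, and 4 of them (Rab25, Rab3c, Rab40b and Rab9b) had no count in any library. The second quantification, described below, put Rab9b, Rab3c and Rab40b at 0.0281, 0.018 and 0.0132 TPM on average, and Rab25 at 0. The median over all 59 genes of the mean level was 3.31 TPM, beside 0.113 TPM over all nuclear protein-coding genes, and 45 of the 59 lay above the latter. For 27 genes of the Ras family and 27 of the Arf and Arl family the medians were 7.53 and 13 TPM. The RAB genes summed to 983, 882 and 912 TPM in replicates 1, 2 and 3. That was 0.417% ± 0.0026 (SD, n = 3) of the protein-coding TPM, more than the Arf and Arl (0.267%) or Ras (0.179%) genes held. The RAB list is also the longest of these, so its sum rests on more genes. The plot of levels by role shows every gene in every library.

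**Figure D1:**
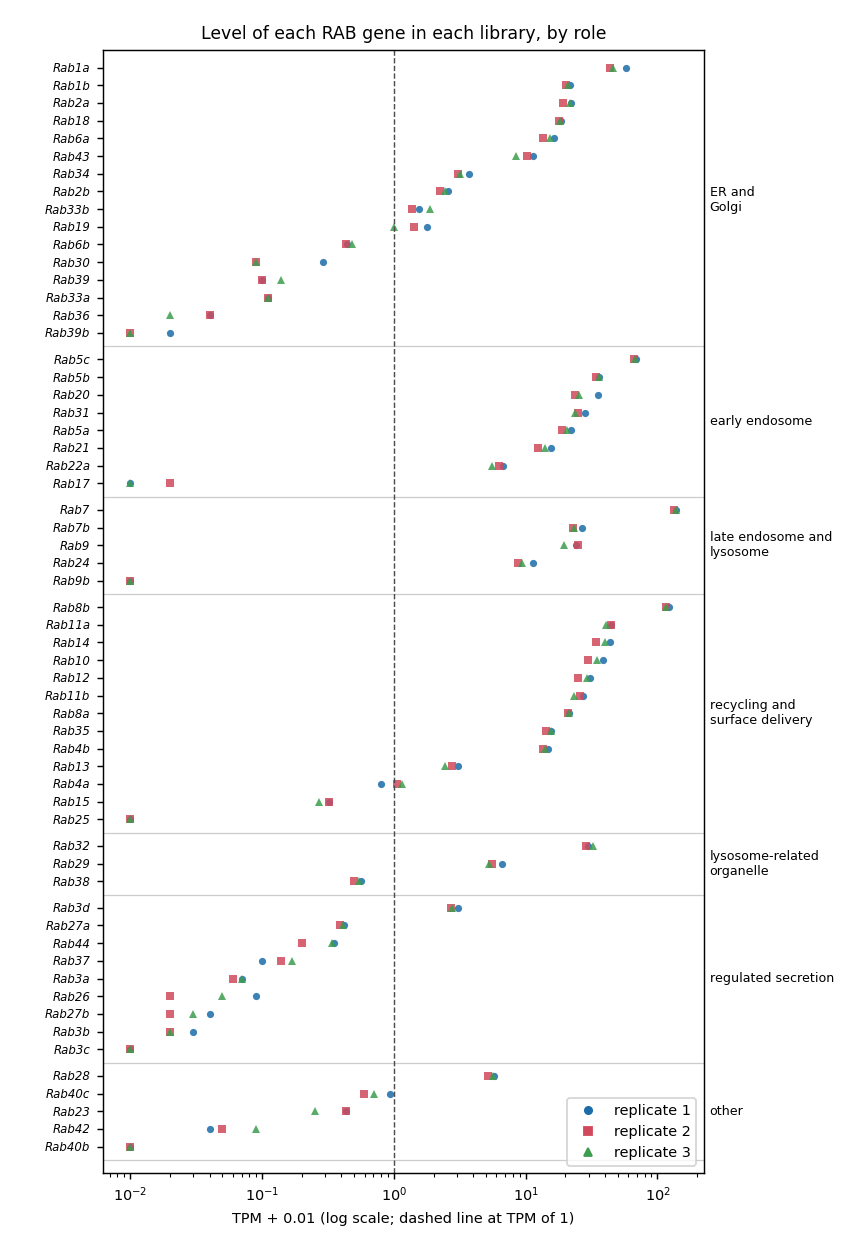
Level of each of the 59 RAB genes in TPM + 0.01 on a log axis, grouped by role, with 1 symbol per library (circle, replicate 1; square, replicate 2; triangle, replicate 3) and a dashed line at 1 TPM. Rab7 (136 TPM) and Rab8b (118 TPM) lie farthest right, 7 of the 8 early endosome genes lie right of the line, and all but 1 of the 9 regulated secretion genes lie left of it.

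Late endosome and lysosome genes held the highest level of the family. Rab7 (ENSMUSG00000079477.9, mm10 chr6:87999106-88045270, minus strand), which directs the maturation of late endosomes and phagosomes and their fusion with lysosomes, stood at 138, 133 and 139 TPM in replicates 1, 2 and 3, or 136 ± 3.2 TPM (SD, n = 3). Every library of Rab7 lay above every library of the other 58 genes. Rab7b, known for trafficking between endosomes and the trans-Golgi network, stood at 27, 23 and 23.1 TPM. Rab9, which returns mannose 6-phosphate receptors from late endosomes to the Golgi, stood at 23.9, 24.9 and 19.6 TPM, with replicate 3 below the other libraries. Rab24, an atypical member tied to autophagy, stood at 11.3, 8.81 and 9.31 TPM, and Rab9b was listed at 0. Of these 5 genes 4 were detected.

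Early endosome genes were nearly all present, with 7 of 8 detected and 6 of them at 10 TPM or more in every library. The 3 Rab5 genes, which drive fusion of early endosomes and of new phagosomes with them, were led by Rab5c (mm10 chr11:100715009-100738215, minus strand) at 69.2, 66.6 and 67.7 TPM, or 67.8 ± 1.3 TPM (SD, n = 3). Rab5b stood at 35.8, 34 and 36 TPM and Rab5a at 22, 18.7 and 20.5 TPM. The libraries of the 3 genes did not overlap, so the order Rab5c, Rab5b, Rab5a held in each. Rab20, a RAB of early and maturing phagosomes, stood at 35.3, 23.7 and 25.6 TPM, with replicate 1 apart from the other libraries. Rab31, which carries cargo from the trans-Golgi network to endosomes, stood at 28.2, 24.9 and 23.5 TPM. Rab21 and Rab22a, which act in endocytic recycling, averaged 14 and 6.19 TPM. Rab17, a RAB best known from epithelia, was listed at 0, 0.01 and 0 TPM.

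Recycling and surface delivery formed the group with the largest sum, 344 ± 17.7 TPM (SD, n = 3) over 13 genes, 10 of them detected. Rab8b (mm10 chr9:66843664-66919687, minus strand), one of the RABs that carry vesicles to the plasma membrane, stood at 123, 117 and 116 TPM, or 118 ± 3.5 TPM (SD, n = 3). All its libraries lay below those of Rab7 and above those of Rab5c. Rab11a, the RAB of the recycling endosome, stood at 44.5, 44.2 and 41 TPM. Rab14, which works between the Golgi, endosomes and phagosomes, stood at 43.9, 34.2 and 40.1 TPM, and Rab10, which is known to bring TLR4 to the macrophage surface, at 38.4, 29.9 and 34.8 TPM. In both, replicate 2 was the lowest library and replicate 1 the highest. Rab12, which directs receptors from recycling endosomes to degradation, stood at 30.6, 24.9 and 29.1 TPM with the same order of libraries. Rab11b, Rab8a, Rab35 and Rab4b averaged 25.5, 21.1, 15.1 and 14.1 TPM. Rab13, a RAB of cell junctions, was detected at 2.75 TPM on average. Rab15 averaged 0.293 TPM and the epithelial Rab25 was listed at 0.

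Among 16 ER and Golgi genes 9 were detected. Rab1a (mm10 chr11:20201432-20226856, plus strand), which acts in transport from the ER to the Golgi, stood at 58, 43.6 and 45.8 TPM, or 49.1 ± 7.8 TPM (SD, n = 3), and replicate 1 was the high library. Rab1b stood at 21.8, 20.2 and 21.1 TPM and Rab2a, which acts between the ER and the Golgi, at 22.2, 19 and 21.6 TPM. Rab18, found on lipid droplets and the ER, stood at 18.7, 18 and 18.2 TPM, and Rab6a, which runs retrograde Golgi traffic, at 16.5, 13.6 and 15.4 TPM. Rab43 averaged 10 TPM and Rab34 3.31 TPM. The detection threshold passed through this group: the 2 genes nearest above it were Rab2b at 2.57, 2.24 and 2.44 TPM and Rab33b, a Golgi RAB that binds an autophagy factor, at 1.55, 1.36 and 1.86 TPM. Nearest below it were Rab19 at 1.76, 1.4 and 0.99 TPM, which missed it through replicate 3, and Rab4a of the recycling group at 0.79, 1.04 and 1.14 TPM, which missed it through replicate 1. The remaining ER and Golgi genes averaged between 0.00333 (Rab39b) and 0.44 TPM (Rab6b).

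Genes for regulated secretion were the group least represented, with 1 of 9 detected and a sum of 3.78 ± 0.32 TPM (SD, n = 3). The detected one was Rab3d, which sits on secretory granules of non-neuronal cells, at 3.08, 2.69 and 2.73 TPM. Its neuronal paralogs Rab3a and Rab3b averaged 0.0567 and 0.0133 TPM and Rab3c was listed at 0. Rab27a, which docks secretory granules and exosomes, stood at 0.41, 0.38 and 0.4 TPM and Rab27b at 0.03, 0.01 and 0.02 TPM. Of the genes for lysosome-related organelles, Rab32 stood at 29.8, 28.6 and 32.6 TPM and Rab29 averaged 5.82 TPM, while Rab38 averaged 0.523 TPM. Of 5 genes with other or unclear roles, Rab28, a ciliary RAB, was detected at 5.52 TPM. Rab40c, Rab23, Rab42 and Rab40b averaged 0.737, 0.36, 0.05 and 0 TPM. For the 4 genes with no count, a count of 0 allows up to 3 counts per library, or up to 0.0963, 0.0263 and 0.0503 CPM (counts scaled to library size) in replicates 1, 2 and 3, for counting error only. In bulk RNA, expression in few cells and low expression in all cells cannot be told apart.

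The summed level was concentrated in few genes. Rab7 and Rab8b together held 27.6% ± 0.97 (SD, n = 3) of the RAB TPM, and the 5 highest genes (Rab7, Rab8b, Rab5c, Rab1a and Rab11a) held 44.9% ± 0.92 (SD, n = 3). The libraries of Rab7, Rab8b, Rab5c and Rab1a, the first 4 genes in the order, did not overlap with each other. Rab1a in replicate 2 (43.6 TPM) lay within the ranges of Rab11a (41 to 44.5 TPM) and Rab14 (34.2 to 43.9 TPM). In the second quantification Rab11a (24 TPM) stood above Rab1a (21.7 TPM). Of the 33 neighbouring pairs of detected genes, 24 had overlapping library ranges. Compared within each library, 17 of the 33 pairs, and 8 of the 24 that overlapped, had the same order in all 3. The order depends on the length scaling. Rab8b gave 31055, 121137 and 59399 expected counts and Rab7 only 14509, 57021 and 29427. The transcript of Rab8b used most has 4733 bases and that of Rab7 2159.

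Where a RAB has lettered paralogs, 1 of them usually carried most of the subfamily's level. Over the 11 subfamilies with a member at 1 TPM or more, the highest paralog held a median of 89.6% of the summed TPM. Rab7 held 84.9% ± 1.1 (SD, n = 3) against Rab7b, 5.63 ± 0.46 fold (SD, n = 3) its level. Rab8b held 84.9% ± 0.42 (SD, n = 3) against Rab8a, which stood at 21.2, 20.8 and 21.4 TPM. Rab4b held 93.4% ± 1.4 (SD, n = 3) against Rab4a. Rab6a held 97.2% ± 0.26 (SD, n = 3) against Rab6b, a RAB best known from neurons, which stood at 0.43, 0.42 and 0.47 TPM. Rab33b held 94% ± 0.88 (SD, n = 3) against Rab33a, Rab3d 97.6% ± 0.19 (SD, n = 3) against its 3 paralogs, and Rab2a 89.6% ± 0.18 (SD, n = 3) against Rab2b. Rab9 held all of its pair in the first quantification, in which Rab9b had no count. Levels were shared more evenly in the remaining subfamilies. Rab1a held 69.8% ± 2.5 (SD, n = 3) with Rab1b, Rab11a 62.9% ± 0.92 (SD, n = 3) with Rab11b, and Rab5c 54.9% ± 0.76 (SD, n = 3) with Rab5b and Rab5a. In all 11 subfamilies the same gene was highest in each library.

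**Figure D2:**
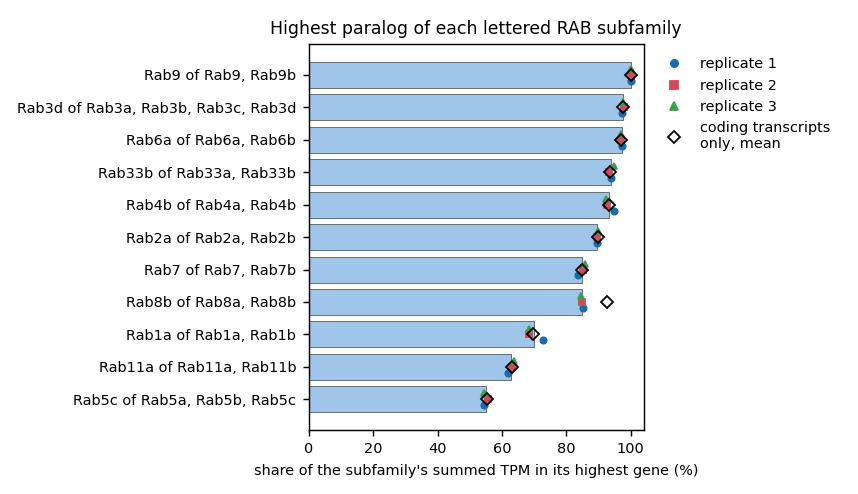
Share of a subfamily's summed TPM held by its highest gene, as the mean of 3 libraries (bars) with each library (symbols) and with protein-coding transcripts only (open diamonds). The bars run from 54.9% for Rab5c to 100% for Rab9, and the diamond stands apart from the bar for Rab8b, at 92.6% against 84.9%.

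The transcript tables add which form of each gene was present. Of 35 RAB genes at a mean of 1 TPM or more, 22 had over 90% of their TPM in 1 transcript and 6 had less than 60% in any. In the second quantification, in the column layout of kallisto, the same transcripts held over 90% in 14 genes and less than 60% in 3. Rab6a is a case in which the choice alters the protein. Its transcripts carry either of 2 alternative versions of coding exon 4, each of 106 bases, which lie next to each other on chromosome 7. The upstream exon (mm10 chr7:100629666-100629771, plus strand) is in Rab6a-202 and Rab6a-203, and the downstream exon (chr7:100629838-100629943) in Rab6a-201. Both are printed because the split between them is the measurement, with capitals where they differ.
Rab6a upstream exon: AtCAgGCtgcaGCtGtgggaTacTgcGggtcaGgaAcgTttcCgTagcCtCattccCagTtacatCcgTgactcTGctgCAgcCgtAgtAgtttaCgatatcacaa
Rab6a downstream exon: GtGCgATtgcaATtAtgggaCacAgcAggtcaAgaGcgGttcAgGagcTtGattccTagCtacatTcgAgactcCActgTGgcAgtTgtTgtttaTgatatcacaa
The exons differ at 30 bases, and between Rab6a-201 and Rab6a-202, both of 208 coding codons, these alter 3 amino acids. The downstream exon held 49.7%, 59.4% and 59.5% of the gene's TPM in replicates 1, 2 and 3, or 56.2% ± 5.7 (SD, n = 3). The upstream exon held 49.6%, 39.7% and 39.3%. Both forms were thus present, in about equal parts in replicate 1 and with the downstream exon ahead in the other libraries. In the second quantification the downstream exon held 65.1% ± 6.0 (SD, n = 3).

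Rab8a was the RAB gene at 1 TPM or more whose highest transcript was not protein-coding. Rab8a-202 is annotated as a retained intron. It starts inside exon 1 of the coding transcript Rab8a-201, with the last 124 of the 283 bases of that exon. From there it follows Rab8a-201 through exon 5 and then runs 128 bases into the intron, where it ends. The end of exon 5 and the retained stretch (mm10 chr8:72175890-72176057, plus strand) are printed because these bases set the transcript apart, with the intron in capitals.
Rab8a: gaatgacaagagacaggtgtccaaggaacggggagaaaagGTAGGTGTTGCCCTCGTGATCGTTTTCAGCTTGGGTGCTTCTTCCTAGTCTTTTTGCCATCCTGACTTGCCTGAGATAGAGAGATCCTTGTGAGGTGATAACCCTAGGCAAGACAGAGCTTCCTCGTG
By TPM, Rab8a-202 held 53.2%, 55.8% and 56.7% of the gene in replicates 1, 2 and 3. By expected count it held 7.53%, 8.77% and 8.75%. The transcript has 542 bases against 4550 in Rab8a-201, so that each of its counts weighs far more in TPM. With protein-coding transcripts only, Rab8b held 92.6% ± 0.11 (SD, n = 3) of the Rab8 pair and stood 12.6 fold over Rab8a, compared with 5.61 fold with all transcripts.

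Rab11a was split most, with Rab11a-208 at 37.9%, 31% and 38.2% of its TPM and Rab11a-201 at 30.8%, 33.4% and 37% in replicates 1, 2 and 3. The libraries of these 2 transcripts overlapped, and the second quantification put Rab11a-201 first, at 41.3%. There Rab11a-208 held 19%, while it held 77.5% of the gene's expected counts. Rab18 held 44.8% ± 3.3 (SD, n = 3) in Rab18-203. By expected count Rab18-203 held 12.4%. Rab7b, by TPM, held 53.7%, 52.7% and 54.2% in Rab7b-202 and 42.4%, 42.7% and 41.1% in Rab7b-201, an order that the second quantification turned, with 42.8% and 52.2%. In the other 33 of the 35 genes both quantifications had the same highest transcript, which was fixed in advance for the 5 with 1 annotated transcript. Non-coding transcripts of a gene held over 5% of its TPM in 7 of the 35 genes, and in 12 in the second quantification.

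**Figure D3:**
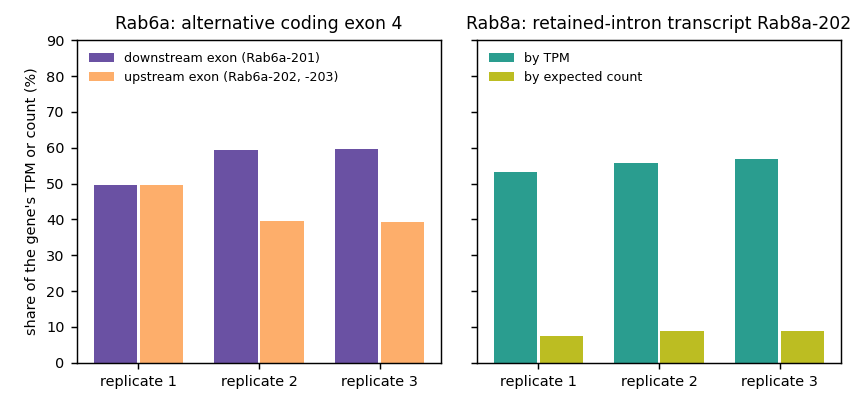
Shares in each library of the 2 alternative coding exons of Rab6a by TPM (left) and of the retained-intron transcript of Rab8a by TPM and by expected count (right), in percent of the gene. The Rab6a exons are level in replicate 1 and apart in replicates 2 and 3, and the Rab8a transcript is at 55.3% by TPM and 8.35% by count on average.

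RAB levels differed little between the 3 libraries. All 34 detected RAB genes had a ratio of the highest to the lowest library below 1.5 on TPM, against 89.4% of detected protein-coding genes, and in the second quantification 7 did on its own TPM and 34 once rescaled to protein-coding genes. The median ratio was 1.17 beside 1.21. The largest spreads of log2(TPM + 1) belonged to Rab20 (SD 0.29), Rab1a (0.22), Rab43 (0.20), Rab9 (0.18) and Rab14 (0.18), n = 3 each. Rab43 stood at 11.4, 10.2 and 8.44 TPM. The smallest belonged to Rab8a, Rab18 and Rab5c, with SDs of 0.02, 0.02 and 0.03, all on deposited TPM. Of the 34 genes, 27 were highest in replicate 1, in which protein-coding genes held 23.5% of all TPM, against 21.1% and 22% in replicates 2 and 3. The share of all detected protein-coding genes highest there on deposited TPM was not computed, so the 27 are not read as a trait of RAB genes. On TPM rescaled to the protein-coding genes of each library, 15, 10 and 9 of the 34 were highest in replicates 1, 2 and 3, beside 41.2%, 23.8% and 35% of detected protein-coding genes. On that scale Rab20 remained high in replicate 1, at 150.2 against 112 and 116 rescaled TPM. The smallest ratios of the highest to the lowest library were there 1.00 for Rab4b, 1.04 for Rab1b and 1.04 for Rab2b, against 1.09, 1.08 and 1.07 for Rab8a, Rab18 and Rab5c.

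**Figure D4:**
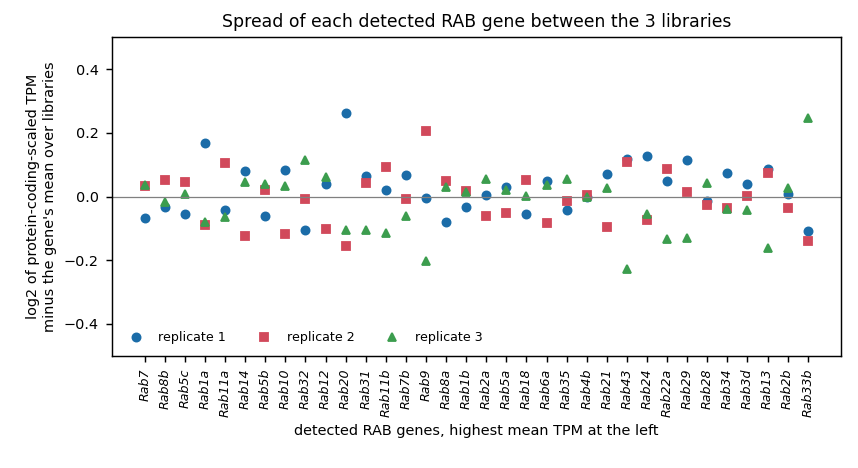
Deviation of each detected RAB gene in each library from its mean over libraries, in log2 of TPM rescaled to protein-coding genes, with the genes ordered by mean TPM from the left. Rab20 (replicate 1 high), Rab33b (replicate 3 high), Rab43 (replicate 3 low) and Rab9 (replicate 2 high, replicate 3 low) have the symbols farthest from the line at 0.

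A Poisson dispersion test asked whether the libraries of a gene differed by more than counting error, with TMM factors from edgeR and Benjamini-Hochberg adjustment at 0.05 over all genes whose mean count was 10 or more. Of the 47 RAB genes tested, 27 varied beyond counting error, against 62.1% of all genes and 61.9% of protein-coding genes tested, a share near the background. Without replicate 2, the deepest library, 15 of 46 RAB genes varied, beside 37.9% of all genes. Without replicate 1 it was 19 of 49, beside 45.3%, and without replicate 3 it was 22 of 48, beside 49.5%. Among the genes called were Rab7, Rab8b, Rab5c, Rab1a, Rab20, Rab9 and Rab8a. Rab11a, Rab12, Rab18, Rab6a, Rab5a and Rab2a did not pass the test. The variation beyond counting error was small: its coefficient had a median of 4.68% over the tested RAB genes and 8.3% over the tested protein-coding genes, and without replicate 2 the RAB median was 2.54%. The RAB genes also had more counts, with a median of 4032 against 969.8. Over detected genes only, the medians were 4.72% and 7.53%.

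The genes that load, switch and read RAB proteins were examined as 4 lists. All 8 genes of the GDP dissociation inhibitor and prenylation list were detected, with a median of 4.64 TPM. Gdi2, which extracts GDP-bound RABs from membranes, stood at 106, 92.8 and 96.8 TPM. Gdi2 was thus above every RAB gene but Rab7 and Rab8b. Rabac1, which helps to release RABs from the inhibitor, stood at 27.4, 25.8 and 25.5 TPM, and Chml, an escort protein for prenylation, was lowest at 1.43, 1.18 and 1.51 TPM. Of 34 exchange factors, which load GTP, 25 were detected, with a median of 4.45 TPM. They were led by Dennd5a at 37, 29.6 and 34.1 TPM, Rabgef1, the Rab5 exchange factor also called Rabex-5, at 36, 31.2 and 30.5 TPM, and Rin2, another Rab5 exchange factor, at 21.9, 22.4 and 19.2 TPM. Their lowest was Rin1, a relative of Rin2, at 0.0167 TPM. Of 36 GTPase-activating proteins, which switch RABs off, 28 were detected, with a median of 3.11 TPM. Tbc1d13, Tbc1d1 and Tbc1d2b led at 19.4, 18.9 and 18.8 TPM, and Sgsm1 was listed at 0.

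Of 45 effectors, which bind the active form, 27 were detected, with a median of 2.92 TPM. Myo5a, a motor that moves vesicles along actin, stood at 151, 126 and 147 TPM. Its range took in that of Rab7. Rilpl2, an effector of Rab8, Rab10 and Rab36 that binds Myo5a, stood at 50.4, 44.2 and 42.1 TPM. Rab11fip1, an effector of Rab11, stood at 24.1, 24.7 and 32.8 TPM, with replicate 3 above the others. The lowest effectors were 7 genes listed at 0 TPM: Myo5b, Myrip, Sytl2, Sytl5, Exph5, Rims1 and Rph3a. These are known partners of Rab3, Rab11 or Rab27. Partners of these RABs were not absent as a class. Of the listed genes named for Rab11, Rab11fip1 and Rab11fip5 (10 TPM) were detected, and Rab11fip2, Rab11fip3 and Rab11fip4 were not. Over the 4 lists 88 of 123 genes were detected.

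**Figure D5:**
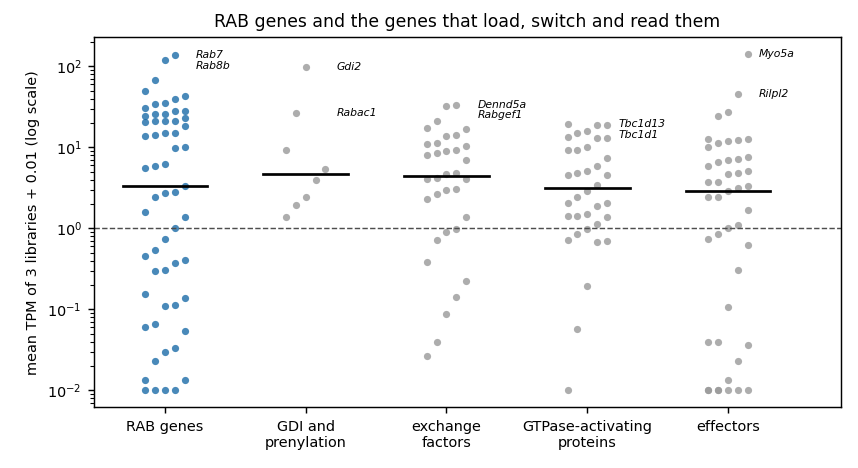
Mean TPM + 0.01 of 3 libraries on a log axis for the 59 RAB genes and for 4 lists of their regulators, with 1 point per gene, a bar at the median and a dashed line at 1 TPM. Gdi2 (98.7 TPM) and Myo5a (141 TPM) reach the level of the highest RAB genes, while the highest exchange factor, Dennd5a, is at 33.6 TPM and the highest GTPase-activating protein, Tbc1d13, at 19.4 TPM.

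Some RAB levels share their bases with other genes, and the strand setting of the counting is not given in the sources used here. Rab24 has 62.4% of its exon bases inside exons of Prelid1 on the opposite strand, a gene at 43.2 TPM against 9.8 for Rab24. Rab43 shares 75.4% of its exon bases with the gene Gm45140 on the same strand (0.893 TPM), and Rab4b 65% with Gm21983 (listed at 0). Rab20 shares 25.6% with the opposite-strand RNA E230013L22Rik (3.74 TPM), and Rab6a 19% with Mrpl48 (6.47 TPM) on the opposite strand. Rab2b shares 59.3% with the opposite-strand transcript Gm43766 (0.02 TPM) and 4.68% with the opposite-strand gene Tox4 (12.8 TPM). Of all 50-base stretches of its transcripts, Rab33b shares 21.2%, Rab11b 13.6%, Rab7 12.7% and Rab8b 5.46% with other genes. Those of Rab33b lie in Gm38160 (0.0267 TPM) and H2-T23 (98 TPM), among others. The pseudogene Gm20689 (3.17 TPM) holds 230 of the 255 shared stretches of Rab8b. The pseudogene Rab11b-ps2 holds 555 of the 853 shared stretches of Rab11b, and Rab7-ps1 305 of the 348 of Rab7, and others lie in the RNAs Gm17251 and Gm5577. The levels of these genes are uncertain to an extent that was not tested.

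The second quantification gave lower TPM for most of the family: of the 35 genes at 1 TPM or more, 33 were over 2 fold lower there, all but Rab11a (1.8 fold) and Rab22a (1.98 fold). How many other protein-coding genes were over 2 fold lower was not counted, so the 33 are not read as a trait of the family. After both quantifications were rescaled to their own protein-coding genes, none of the 35 differed by over 2 fold. The ratio of the first to the second then ran from 0.712 for Rab11a to 1.17 for Rab2b.

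Promoter letters, which the name rule did not use, were read as a further description. In the 250 bases before the RefSeq start (GRCm38.p6), the letters CG were counted, which read the same on both strands. A start was matched for 48 of the 59 genes, 31 detected and 17 not. The RefSeq start nearest to that of the highest transcript was used, with no limit on distance. It lay 11220 bases away for Rab3b and 695 for Rab3c. All 48 windows held a CG, as did 93% of windows of the same length at all 16500 protein-coding genes matched. The median was 20 CG in detected and 9 in undetected RAB genes, beside 17 and 5 in detected and undetected protein-coding genes. The windows of Rab8b, at 118 TPM, and Rab17, at 0.00333 TPM, are printed as examples chosen after their values were seen, with CG in capitals. They lie at chr9:66919706-66919955 and chr1:90967668-90967917, both on the minus strand. The Rab17 window lies inside the annotated gene (chr1:90958133-90969661), so it stands before an internal start.
Rab8b: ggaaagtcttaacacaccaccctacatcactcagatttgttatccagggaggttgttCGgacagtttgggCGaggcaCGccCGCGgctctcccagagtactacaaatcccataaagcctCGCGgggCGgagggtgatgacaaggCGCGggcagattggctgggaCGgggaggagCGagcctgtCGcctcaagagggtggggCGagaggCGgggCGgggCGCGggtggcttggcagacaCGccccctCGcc
Rab17: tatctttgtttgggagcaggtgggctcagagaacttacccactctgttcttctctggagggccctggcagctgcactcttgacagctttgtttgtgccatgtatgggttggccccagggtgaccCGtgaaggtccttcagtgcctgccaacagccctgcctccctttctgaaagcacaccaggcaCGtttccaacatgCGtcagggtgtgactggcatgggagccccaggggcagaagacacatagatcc
Rab8b has 20 CG and Rab17 has 3. Rab7, the highest gene of the family, has 10, fewer than the median of the detected RAB genes.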

How the data were processed

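Per the labels, ribosomal RNA-depleted RNA was sequenced in 3 libraries of 1 group, with a stated size range of 250 to 400 bp. A deposited listing gives mm10 as the genome, GENCODE M21 as the annotation, transcriptome alignments as the source of the main tables and reads as the source of the others. The aligner, the software versions and the strand mode were not given in the sources used here. Expected counts, as deposited by the authors, are fractional estimates of reads per gene. Deposited TPM was scaled by the authors for length and to a fixed sum over all features, so abundant short RNAs lower the TPM of all other genes. FPKM was deposited beside it and served as an alternative. Interval bounds of TPM, read as a signal with no fixed sum, and the effective length were deposited per the file headers and entered no comparison. The second quantification, deposited as transcript TPM in the layout of kallisto, was summed per gene.

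Depth was 31152786, 114031592 and 59693298 expected counts in replicates 1, 2 and 3. Symbols, gene types, transcripts and coordinates were taken from GENCODE M21, and sequences from the GENCODE M21 transcripts, except the promoter windows, which are from RefSeq on GRCm38.p6. Detection required 1 TPM or more in each library. Means and SDs are over 3 libraries, and no contrast between conditions was possible. For the dispersion test, expected counts were rounded and compared with Poisson expectations scaled by TMM factors of edgeR 4.0.16 in R 4.3.3, over genes with 10 or more counts on average, with Benjamini-Hochberg adjustment. This test was tested on simulated data. Size factors of DESeq2 1.42.0 were an alternative, as were the second quantification, FPKM, TPM rescaled to protein-coding genes, other thresholds and leaving out each replicate. Python 3.11.15 with numpy 2.4.6, pandas 2.3.3, scipy 1.17.1 and matplotlib 3.10.9 was used.

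The members, the gene lists and the tests were chosen with earlier results of these data known. Named with values were the 12 highest genes, the lettered paralogs, the 5 detected genes with the largest and the 3 with the smallest spread, the 2 genes on either side of the detection threshold, the 4 genes above 5 TPM with the lowest share in 1 transcript, and the 3 highest and the lowest gene of each regulator list. Genes that differed over 2 fold between the quantifications were summarised, since nearly all did. Rab6a, the other low genes and the gene overlaps were named after their values were seen. No protein sequences are printed. A few items that these rules cover are not reported here.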

Additional observations from a re-analysis of the deposited data

Results flagged for a closer look

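The name rule leaves out 6 loci with a Rab symbol that are not protein-coding, and 3 of these had more than the 3 counts that a count of 0 allows in every library. They are given because their levels enter no comparison above, although the pseudogenes among them were named there for shared stretches. Rab10os, an antisense gene on chromosome 12, stood at 5.6, 4.97 and 4.2 TPM in replicates 1, 2 and 3, or 4.92 ± 0.70 TPM (SD, n = 3), and its exons overlap those of Rab10. Rab7-ps1, a processed pseudogene of Rab7 on chromosome 9, stood at 0.51, 0.78 and 0.92 TPM, with a mean of 0.737 TPM. Rab11b-ps2, a processed pseudogene of Rab11b on chromosome 19, stood at 0.45, 0.33 and 0.29 TPM, with a mean of 0.357 TPM. Whether reads of the parent genes were counted in these loci was not tested. A group of 3 libraries is too small for a test of single outlying libraries, so none was made.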

How the results depend on the processing

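No paired analysis was possible because the series has 1 group. Of 65 alternative values for the main results, 48 stayed within the stated bounds, 15 moved and 2 counts fell by more than 1.5 times. For single genes, 149 of 205 stayed and 56 moved. A value stayed if it shifted by no more than the SD of the 3 libraries. Leaving 1 replicate out of a mean of 3 cannot shift it further than that, so those single-gene values could only stay. Paralog shares on rescaled TPM or FPKM were also fixed but for rounding. The number that stayed is therefore not a measure of stability. The median RAB level of 3.31 TPM became 1.32 in the second quantification, 14.9 on TPM rescaled to protein-coding genes and 6.30 as FPKM. The median of the 12 highest genes, 37.3 TPM, became 14.4, 168 and 71.0 in the same order. For Rab7, Rab8b, Rab5c, Rab1a, Rab11a, Rab14, Rab5b, Rab10, Rab32, Rab12, Rab20 and Rab31, in this order, the second quantification gave 58.4, 43.1, 25.4, 21.7, 24, 15.6, 13.3, 12.8, 11, 11.4, 10.8 and 9.81 TPM. Rescaling gave 616, 534, 306, 221, 195, 177, 159, 154, 137, 127, 126 and 115 TPM, and FPKM gave 260.2, 226, 129, 93.3, 82.4, 74.8, 67.1, 65.3, 57.8, 53.7, 53.4 and 48.6. These settings change the scale of all genes, and in the second quantification Rab11a came above Rab1a. With the second quantification on the protein-coding scale of the first, an alternative chosen after seeing the data, Rab7, Rab8b, Rab5c and Rab11a moved to 150.4, 111, 65.3 and 60.8 TPM. The number of genes with a library ratio below 1.5 was 7 in the second quantification against 34, and 34 on that scale. The share of the 5 highest genes was 46.0% in the second quantification and 47.4% by expected counts. The median share of the highest paralog was 90.6% in the second quantification, where the subfamilies Rab2, Rab3, Rab8, Rab11, Rab1 and Rab9 moved to 90.6%, 92.6%, 81.5%, 69.8%, 73.3% and 99.7%. With protein-coding transcripts only, added after seeing the data, the median was 92.6%, and Rab2 and Rab8 moved to 89.9% and 92.6%. The median share of the highest transcript, 94.2%, was 86.2% in the second quantification and, added after seeing the data, 97.7% by expected counts. These medians include the 5 genes with 1 annotated transcript, fixed at 100%. For Rab11a, Rab18, Rab7b and Rab8a the shares were 19%, 48.6%, 42.8% and 65% in the second quantification and 77.5%, 12.4%, 78.7% and 8.35% by expected counts.

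Leaving out 1 replicate in turn gave 92.9% to 94.4% for the median transcript share, 15 to 22 genes that varied beyond counting error, and 2.54% to 4.59% for the median variation beyond it. The number detected ran from 29 to 37 over all alternatives. The cause of these changes was not tested. Depth limits what can be said of genes with under 10 counts on average, which were not tested for spread, and TPM was deposited with 2 decimals.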
